A study of Mus musculus with 6 samples.

Results

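The genes described here encode the structural proteins of the sarcomere and of its Z-disc in striated muscle. They are 41 symbols taken as a list, with myosin heavy chains and troponins left out, and kept where the mean over the 6 libraries was at least 0.5 FPKM; all 41 were kept, of 23351 genes in the deposited table and 13408 genes that passed the same minimum. FPKM is a fragment count scaled by transcript length and by library total, so levels of different genes can be set side by side. The samples were repair tissue of C57BL/6 mice, taken as periosteum with quadriceps from the surface of injured bone, from animals injected with liposomes. The 3 Clod-lip libraries come from mice given liposomes that the table's header names as clodronate, an agent known to deplete phagocytic cells, and the 3 Empty-lip libraries from mice given empty liposomes. All 6 share strain, tissue and injury. The labels give no age, sex, dose or time after injury. Nor do they state whether each library is from its own mouse, so the spread behind every p-value is that between libraries and could be technical.

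The sarcomere is the contractile unit of the muscle fibre. Thin filaments of actin, tropomyosin and nebulin are anchored in the Z-disc by alpha-actinin, thick filaments of myosin are linked across the M-band by myomesins, and titin spans from Z-disc to M-band. Fast and slow fibres use different isoforms of many of these proteins, and some isoforms, cardiac actin among them, are known from heart and from developing or regenerating skeletal muscle.

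Depth in read counts was not derived, because the files hold FPKM. In values up to 0.5 FPKM, ratios between libraries fell within 0.5% of ratios of whole numbers up to 6 for 87.4% to 90.2% of genes, which placed the depth of the other libraries between 0.994 and 1.13 times that of Empty-lip 1, if no further scaling was applied. Over all genes tested, 2.84% rose in Clod-lip and 1.21% fell, by the limma test described below. Of 5 fibre markers, 4 rose in Clod-lip and 1 did not pass. Their summed level was 5645 to 6290.3 FPKM in Clod-lip, against 2475 to 3519 FPKM in Empty-lip. Of 6 macrophage markers, 3 fell and 3 did not pass; the sum was 923 to 1338 FPKM in Clod-lip, against 1532 to 1773 FPKM in Empty-lip. Of 5 neutrophil markers, 3 rose and 2 did not pass, and the sum was 3295 FPKM in Clod-lip 2 and 851 and 1182 FPKM in Clod-lip 1 and 3, against 476 to 1255 FPKM in Empty-lip. The high sum of Clod-lip 2 lay in S100a8 and S100a9, the markers that did not pass; of those that rose, Ngp and Camp were highest in Clod-lip 3 and Ltf in Clod-lip 2. The part of these cells in the results below was not tested. In bulk tissue, less quadriceps taken with the periosteum, fewer fibres and less RNA per fibre cannot be told apart.

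A promoter window of 250 bases before to 50 bases after the annotated start was found for 30 of the 41 genes in the RefSeq annotation of GRCm38.p6, the sequence of mm10. The nearest windows of Myl2 and Mylk4 lay 7790 and 2185 bases from the deposited starts of these genes. Each member was counted by its nearest window, while the windows of all genes cover 27025 genes, some with several. The CArG box, the site of serum response factor known from actin promoters, is shown because it stands in genes of several roles that moved to different extents. It was found in 5 of the 30 member windows (16.7%) and in 1.63% of all 32851 windows. Capitals mark CArG boxes and the letters TATAAA, searched on both strands.

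Acta1, skeletal actin, minus strand, chr8:123894726-123895025: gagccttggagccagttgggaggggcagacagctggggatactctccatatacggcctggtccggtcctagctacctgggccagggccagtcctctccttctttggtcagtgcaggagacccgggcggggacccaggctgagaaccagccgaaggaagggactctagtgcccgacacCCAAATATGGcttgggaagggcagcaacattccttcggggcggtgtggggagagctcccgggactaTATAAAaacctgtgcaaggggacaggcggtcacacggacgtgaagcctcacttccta
Actc1, cardiac actin, minus strand, chr2:114052826-114053125: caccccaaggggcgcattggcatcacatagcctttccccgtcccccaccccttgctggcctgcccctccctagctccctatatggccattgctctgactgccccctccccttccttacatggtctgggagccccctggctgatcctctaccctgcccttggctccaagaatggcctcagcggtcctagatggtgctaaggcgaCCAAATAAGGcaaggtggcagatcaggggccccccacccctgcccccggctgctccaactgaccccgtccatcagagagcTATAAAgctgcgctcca
Myl3, slow and ventricular myosin light chain, plus strand, chr9:110763428-110763727: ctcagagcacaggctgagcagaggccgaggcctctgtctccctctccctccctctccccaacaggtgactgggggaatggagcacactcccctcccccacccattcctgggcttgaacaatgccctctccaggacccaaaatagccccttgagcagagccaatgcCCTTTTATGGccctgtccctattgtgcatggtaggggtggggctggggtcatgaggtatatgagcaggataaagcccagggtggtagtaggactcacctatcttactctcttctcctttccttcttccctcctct
Myom1, myomesin, plus strand, chr17:71019307-71019606: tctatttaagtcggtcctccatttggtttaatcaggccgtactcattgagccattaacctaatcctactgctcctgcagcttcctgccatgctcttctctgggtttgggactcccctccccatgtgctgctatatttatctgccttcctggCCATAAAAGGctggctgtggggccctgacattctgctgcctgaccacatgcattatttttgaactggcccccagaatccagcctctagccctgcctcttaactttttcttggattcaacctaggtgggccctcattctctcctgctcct
Ldb3, the Z-disc protein also called ZASP or cypher, minus strand, chr14:34588632-34588931: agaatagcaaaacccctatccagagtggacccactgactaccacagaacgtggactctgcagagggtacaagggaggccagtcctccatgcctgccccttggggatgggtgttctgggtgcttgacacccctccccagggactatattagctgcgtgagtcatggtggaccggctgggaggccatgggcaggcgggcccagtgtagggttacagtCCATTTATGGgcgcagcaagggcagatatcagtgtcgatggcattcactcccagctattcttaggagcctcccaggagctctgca

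The MEF2 site, bound by a factor of muscle differentiation, was found in 6 of the 30 member windows (20%) and in 3.19% of all windows. The E-box CANNTG stood in 26 of 30 member windows (86.7%) and in 72.3% of all windows, and TATAAA in 4 of 30 (13.3%) and in 13.6% of all. The distant window of Mylk4 is among those with a MEF2 site, and that of Myl2 among those with TATAAA. A match is a description of the letters. Of the 5 genes printed, Acta1, Myom1 and Ldb3 rose in Clod-lip and Actc1 and Myl3 did not pass, as described below. The box was chosen for display because its genes moved to different extents, so this mix follows from the choice. Whether the box goes with the change was not tested.

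Most members were higher in the tissue of clodronate-treated mice. By limma on log2(FPKM + 1), with Benjamini-Hochberg adjustment over all 13408 genes and a threshold of 0.05, 27 of the 41 rose in Clod-lip, 0 fell and 14 did not pass. Over all genes tested, 2.84% rose and 1.21% fell, 4.05% in either direction. The median log2 change was 0.84 over the 41 members and -0.01 over all genes tested; 39 members had a positive change, against 48.1% of all genes tested. For 35 members every Clod-lip library lay above every Empty-lip library, which held for 14% of all genes tested, and for 1, Tpm3, every Clod-lip library lay below, which held for 13.4%. The counts by role below are parts of these totals, and the same shares over all genes apply to them.

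Per the authors' deposited table, 35 members had a q of 0.05 or less, all higher in Clod-lip, where 6.82% of the 10783 genes the authors tested were called higher and 5.41% lower. Of these 35, 26 also passed limma. The 9 called in the authors' deposited table only were Lmod2, Lmod3, Myl2, Myom3, Ttn, Myoz2, Myoz3, Flnc and Synpo2l, and Unc45b was called by limma only, with q = 0.208 in the authors' deposited table.

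The number of calls changed when a library was left out, for the members and for the whole table alike. Leaving out Clod-lip 1, 2 or 3 gave 4, 29 and 3 members rising, with 30, 1392 and 16 genes of the whole table called in either direction, against 543 with all libraries. Leaving out Empty-lip 1, 2 or 3 gave 24, 0 and 11 members rising, with 269, 2 and 85 genes called in the whole table. The members' changes themselves moved less. In each of these 6 fits 39 members had a positive change, 33 to 38 had an unadjusted p under 0.05, and the median was between 0.76 and 0.94. Without Clod-lip 2, Tpm3 fell.

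**Figure D1:**
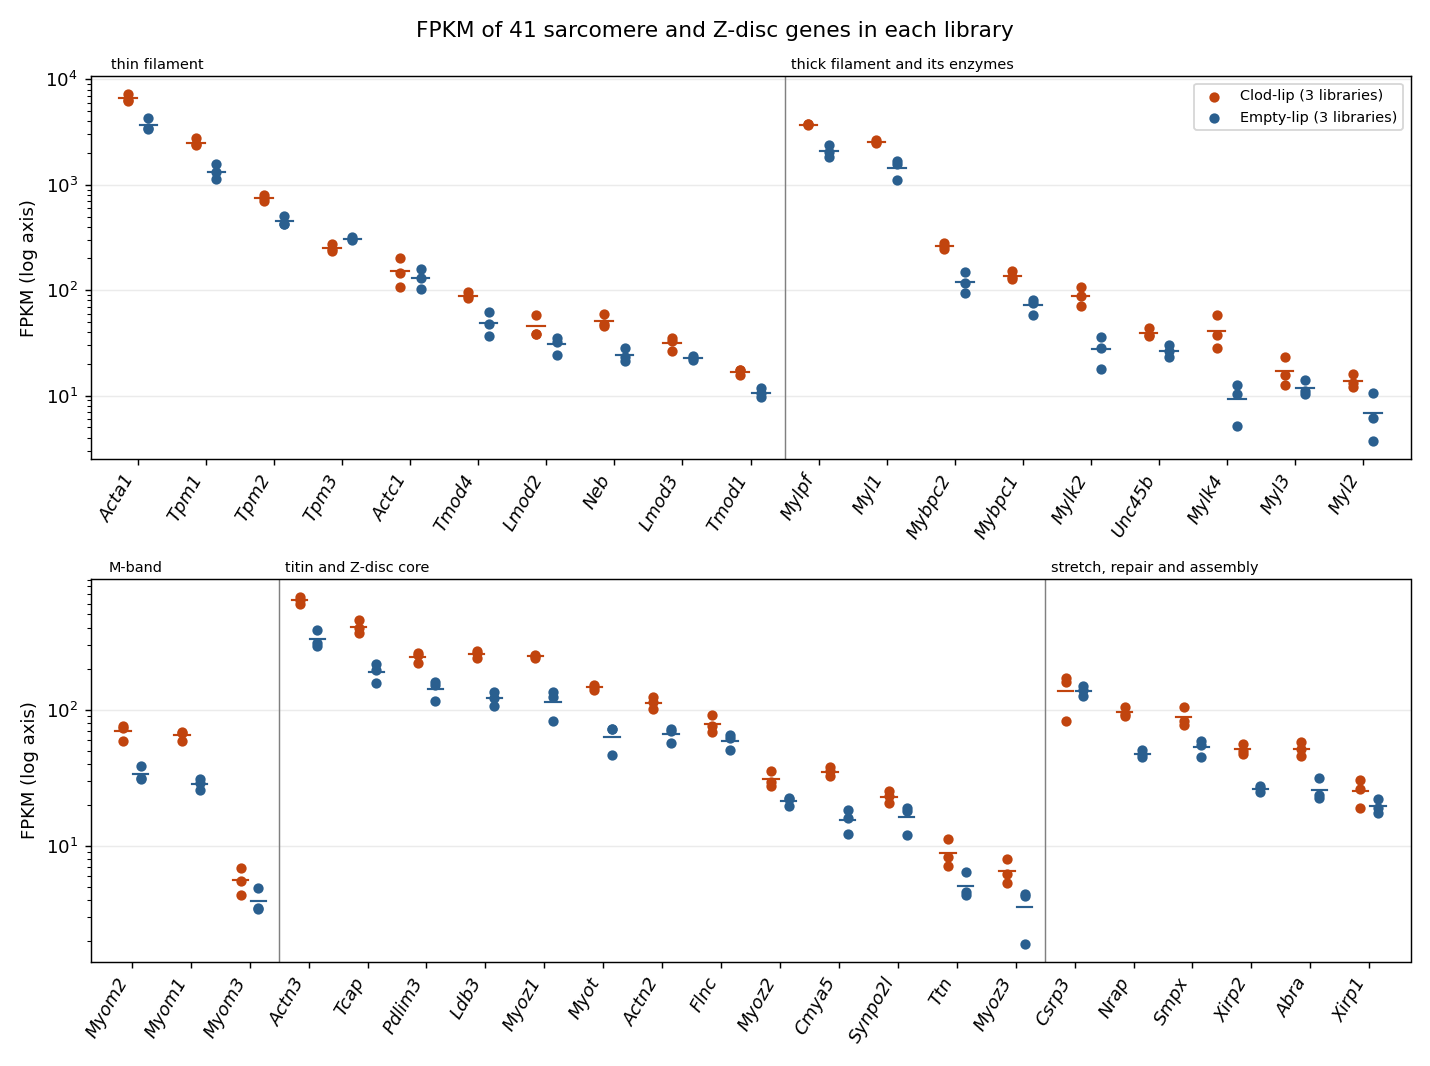
FPKM on a log axis for each of the 41 genes, grouped by role and ordered by mean level, with the 3 Clod-lip libraries as points left of the 3 Empty-lip libraries and a short line at each group mean. Acta1 stands highest, at 6224 to 7303 FPKM in Clod-lip, against 3367 to 4341 FPKM in Empty-lip, and the points of Actc1, Myl3, Myom3, Csrp3 and Xirp1 overlap between groups.

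Together the 41 genes took 3.38%, 3.20% and 3.84% of FPKM in Clod-lip 1, 2 and 3, against 2.25%, 1.85% and 1.74% in Empty-lip 1, 2 and 3, with microRNA and small nucleolar RNA genes left out of the total. The groups did not overlap, with means of 3.47 ± 0.331% in Clod-lip and 1.95 ± 0.266% in Empty-lip (SD, n = 3 each), a 1.78-fold difference. The small RNA genes left out took 32.7%, 0.189% and 0.0985% of all FPKM in Clod-lip 1, 2 and 3, against 45.1%, 39.1% and 47.7% in Empty-lip 1, 2 and 3. With them in the total the members took 3.10 ± 0.786% in Clod-lip and 1.09 ± 0.164% in Empty-lip (SD, n = 3 each), a 2.84-fold difference. Skeletal actin, the fast light chains Mylpf and Myl1, and the tropomyosins Tpm1 and Tpm2 made up 79.9% to 80.1% of the members' FPKM in Clod-lip and 78.2% to 80.1% in Empty-lip. The members differed in level by 3 orders of magnitude, with means over the libraries between 4.79 FPKM for Myom3 and 5180.4 FPKM for Acta1; 4 had at least 1000 FPKM and 16 at least 100 FPKM.

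Clod-lip 3 was the highest library for 29 members, Clod-lip 1 for 7 and Clod-lip 2 for 4. Empty-lip 3 was the lowest for 22 and Empty-lip 2 for 15. The median of the members, as a log2 difference from their Empty-lip mean, was 0.82, 0.81 and 0.98 in Clod-lip 1, 2 and 3, against 0.18, -0.02 and -0.13 in Empty-lip 1, 2 and 3. Clod-lip 2, which held the highest summed neutrophil markers and, among the Clod-lip libraries, the highest summed macrophage markers, was close to Clod-lip 1 in this measure.

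**Figure D2:**
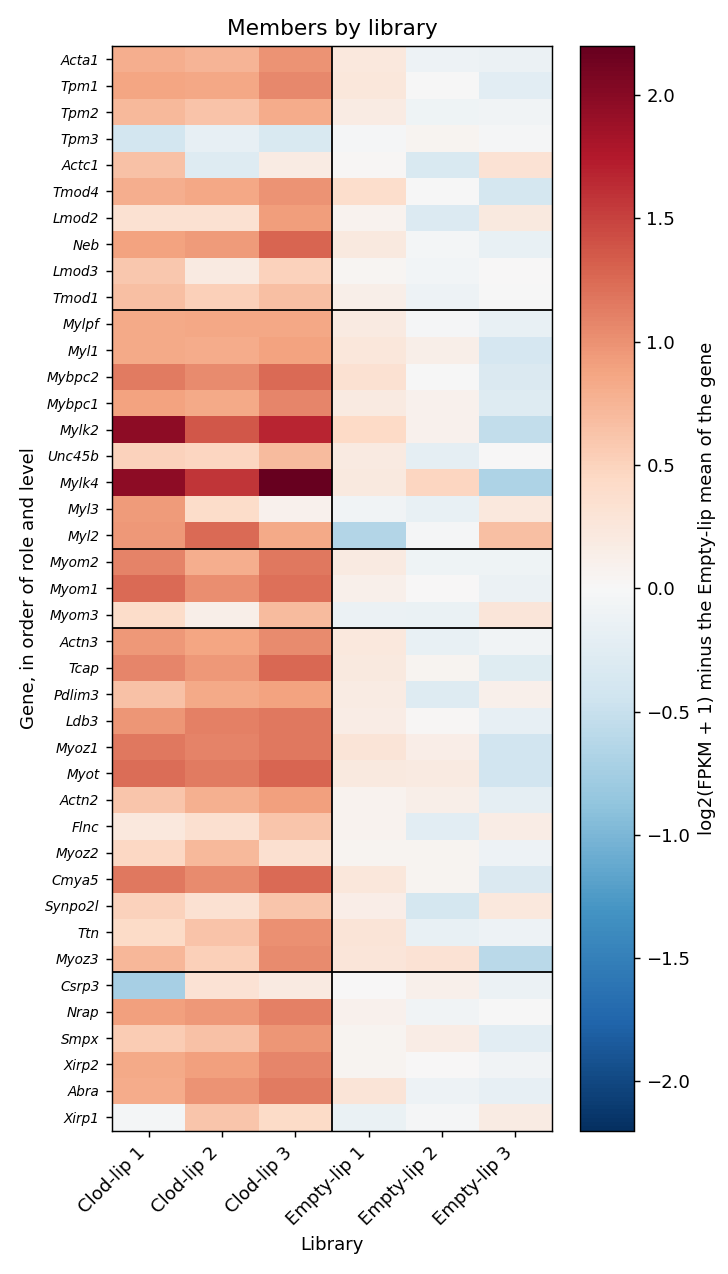
Log2(FPKM + 1) of each gene in each library minus the mean of the gene over the Empty-lip libraries, with red above and blue below that mean, Clod-lip columns left of Empty-lip columns and lines between roles. Most rows are red in all 3 Clod-lip columns; Tpm3 is blue in all 3, and Csrp3 is blue in Clod-lip 1 only among the Clod-lip columns.

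Among 10 thin filament genes, 6 rose and 4 did not pass, with a median log2 change of 0.67. Acta1, the actin of adult skeletal muscle, had 6424, 6224 and 7303 FPKM in Clod-lip 1, 2 and 3, against 4341, 3424 and 3367 FPKM in Empty-lip 1, 2 and 3. All Clod-lip values lay above all Empty-lip values, and the change was 0.85 ± 0.14 on the log2 scale (SE, limma adjusted p = 0.0239). Under quantile normalization this change was 2.65 and no longer passed (limma adjusted p = 0.0966), while its adjusted p ran from 0.0159 to 0.115 over all alternatives. Tpm1, the alpha-tropomyosin that lies along actin, had 2419.8, 2377 and 2749.6 FPKM in Clod-lip, against 1565, 1307 and 1129 FPKM in Empty-lip, again without overlap (log2 0.92 ± 0.14, limma adjusted p = 0.0184). Neb encodes nebulin, a very large protein that runs along the thin filament. It had 45.9, 47.3 and 60.1 FPKM in Clod-lip, against 28.4, 23.4 and 21.4 FPKM in Empty-lip, the highest log2 change of the thin filament genes at 1.03 ± 0.14 (limma adjusted p = 0.0163). Tpm2, beta-tropomyosin, rose 1.65-fold by group means, and the tropomodulins Tmod1 and Tmod4, which cap the slow-growing end of actin, rose 1.58-fold and 1.82-fold.

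Actc1, Tpm3, Lmod2 and Lmod3 were the thin filament genes that did not pass. Actc1, cardiac actin, had 201, 106 and 147 FPKM in Clod-lip, against 131, 103 and 160.4 FPKM in Empty-lip. The groups overlapped, and the log2 change was 0.18 ± 0.24 (limma adjusted p = 0.726), and without Clod-lip 1 its sign turned, to -0.047. The coding sequences of actin genes are similar, so some reads of Acta1 and Actc1 may have been assigned to the other gene. Both values are uncertain to that extent, which was not tested. Tpm3, a tropomyosin gene whose transcripts serve slow fibres and also cells other than muscle, had 233, 271 and 244 FPKM in Clod-lip, against 303, 322 and 302 FPKM in Empty-lip. Its Clod-lip values were all lower, by a log2 change of -0.31 ± 0.08 that did not pass (limma adjusted p = 0.0825) except without Clod-lip 2 (limma adjusted p = 0.0279).

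The leiomodins, which nucleate actin filaments in muscle, did not pass with all libraries. Lmod2 had 38.7, 38.8 and 58.6 FPKM in Clod-lip, against 32.3, 24.4 and 35.6 FPKM in Empty-lip, with Clod-lip 3 well above the rest (log2 0.54 ± 0.19, limma adjusted p = 0.164; log2 0.34 without Clod-lip 3). Lmod3 had 34.9, 26.2 and 32.8 FPKM in Clod-lip, against 23.5, 21.9 and 22.9 FPKM in Empty-lip (log2 0.43 ± 0.11, limma adjusted p = 0.0810), and it passed without Clod-lip 2 (limma adjusted p = 0.0112) and without both Clod-lip 2 and Empty-lip 1 (limma adjusted p = 0.0241). Neither leiomodin overlapped between groups.

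Of 9 genes of the thick filament and its enzymes, 7 rose and 2 did not pass, with a median log2 change of 0.94. Mylpf, the regulatory light chain of fast myosin, had 3685, 3733 and 3745 FPKM in Clod-lip, against 2374, 2029.8 and 1854 FPKM in Empty-lip. The Clod-lip libraries lay close together and above all Empty-lip libraries (log2 0.84 ± 0.11, limma adjusted p = 0.0163). Myl1, the essential light chain of fast myosin, had 2559, 2514 and 2636 FPKM in Clod-lip, against 1697, 1560.3 and 1107 FPKM in Empty-lip (log2 0.84 ± 0.16, limma adjusted p = 0.0354).

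The myosin light chain kinases held the top places of the whole list. Mylk4 had 37.4, 28.2 and 58.6 FPKM in Clod-lip, against 10.4, 12.6 and 5.16 FPKM in Empty-lip. It lay on chromosome 13 from 32700826 to 32781779 of mm10 and was 4.42-fold higher by group means, or 2.04 ± 0.34 on the log2 scale (limma adjusted p = 0.0259). Mylk2, the skeletal muscle kinase that phosphorylates the fast regulatory light chain, had 106, 70.0 and 87.1 FPKM in Clod-lip, against 36.3, 28.5 and 17.8 FPKM in Empty-lip. It lay on chromosome 2 from 152911351 to 152923065 and was 3.19-fold higher, or 1.68 ± 0.25 on the log2 scale (limma adjusted p = 0.0198). Both kinases were free of overlap between groups, and their adjusted p ran from 0.0112 to 0.112 for Mylk4 and from 0.0102 to 0.105 for Mylk2 over all alternatives.

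Myosin binding protein C, which crosslinks thick filaments, is encoded by genes for a fast and a slow form. Mybpc2, the fast form, had 262, 246 and 282 FPKM in Clod-lip, against 150.1, 118 and 94.5 FPKM in Empty-lip (log2 1.14 ± 0.16, limma adjusted p = 0.0163). Mybpc1, the slow form, had 133, 128 and 151 FPKM in Clod-lip, against 81.2, 75.7 and 58.1 FPKM in Empty-lip (log2 0.94 ± 0.13, limma adjusted p = 0.0170). Both forms rose. Unc45b, a chaperone that folds myosin heads, rose 1.48-fold (limma adjusted p = 0.0473) and was lost as a call in 8 of 15 alternatives.

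The light chains of slow and cardiac myosin did not pass. Myl2 had 13.1, 16.2 and 12.0 FPKM in Clod-lip, against 3.67, 6.19 and 10.5 FPKM in Empty-lip. The groups did not overlap, but the Empty-lip libraries differed widely among themselves (log2 1.01 ± 0.30, limma adjusted p = 0.103). Myl3 had 23.4, 15.7 and 12.6 FPKM in Clod-lip, against 11.05, 10.3 and 13.9 FPKM in Empty-lip, with overlap (log2 0.48 ± 0.22, limma adjusted p = 0.247). Markers of heart muscle, 6 in all, summed to 0.120 to 1.52 FPKM in Clod-lip, against 0.517 to 1.42 FPKM in Empty-lip. Myl7 was listed at 0 in every library, and Myh6, Nppa, Tnni3 and Ryr2 stayed below the minimum for testing. Nppb, the only one tested, had 1.04, 1.11 and 0 FPKM in Clod-lip, against 0, 0.517 and 0.492 FPKM in Empty-lip, and did not pass (log2 0.31 ± 0.33, limma adjusted p = 0.652).

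**Figure D3:**
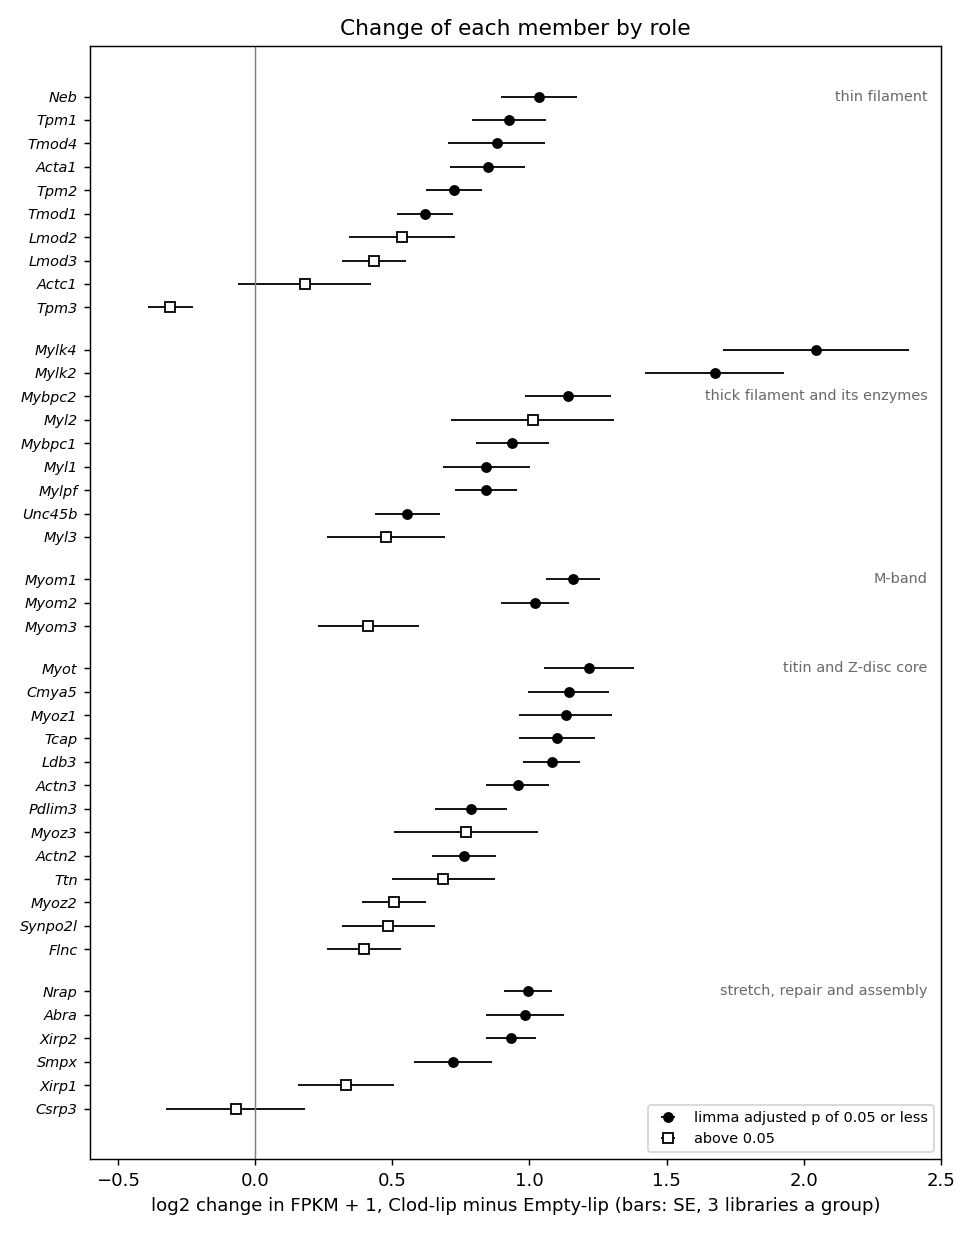
Log2 change in FPKM + 1, Clod-lip minus Empty-lip, for each gene by role, with bars for the SE; filled circles passed limma at an adjusted p of 0.05 or less and open squares did not. The kinases Mylk4 (2.04) and Mylk2 (1.68) stand to the right of all others, and Tpm3 (-0.31) and Csrp3 (-0.07) are the genes left of 0.

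In the M-band, 2 of 3 myomesins rose. Myom1 had 68.9, 58.5 and 66.9 FPKM in Clod-lip, against 30.7, 28.7 and 25.9 FPKM in Empty-lip. This was a 2.28-fold difference with little spread in either group (log2 1.16 ± 0.10), and with Nrap it had the lowest limma adjusted p of the list, 0.00602. Myom2, the form of fast fibres, had 72.8, 59.2 and 75.9 FPKM in Clod-lip, against 38.3, 31.2 and 31.3 FPKM in Empty-lip (log2 1.02 ± 0.12, limma adjusted p = 0.0135). Myom3 had 5.54, 4.39 and 6.94 FPKM in Clod-lip, against 3.52, 3.46 and 4.90 FPKM in Empty-lip, so Clod-lip 2 fell within the Empty-lip range (log2 0.41 ± 0.18, limma adjusted p = 0.244).

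Of 13 genes for titin and the Z-disc core, 8 rose and 5 did not pass. In all 13 the Clod-lip libraries lay above the Empty-lip libraries, which held for 14% of all genes tested. Actn3, the alpha-actinin of fast fibres, had 636, 599 and 674 FPKM in Clod-lip, against 384, 293 and 310.1 FPKM in Empty-lip (log2 0.96 ± 0.11, limma adjusted p = 0.0135). Actn2, the alpha-actinin of all fibres, had 100.5, 113 and 124 FPKM in Clod-lip, against 69.2, 72.4 and 57.1 FPKM in Empty-lip (log2 0.76 ± 0.12, limma adjusted p = 0.0213). These cross-linkers of actin thus both rose, by 1.93-fold and 1.70-fold of the group means.

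Tcap, or telethonin, caps the ends of titin in the Z-disc. It had 397, 363 and 453 FPKM in Clod-lip, against 216, 194 and 156 FPKM in Empty-lip (log2 1.10 ± 0.14, limma adjusted p = 0.0146). Ttn itself, with a mean of 8.89 FPKM in Clod-lip, against 5.12 FPKM in Empty-lip, did not pass (log2 0.69 ± 0.19, limma adjusted p = 0.0883), nor in any alternative. Its exons span 116825 bases of the annotation, so its FPKM depends on the length used by the authors, which is not given in the sources used here.

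Myot, or myotilin, binds alpha-actinin and filamin and had the highest log2 change of the Z-disc genes. It had 147, 139 and 151 FPKM in Clod-lip, against 71.8, 71.6 and 46.3 FPKM in Empty-lip (log2 1.22 ± 0.16, limma adjusted p = 0.0163). Cmya5, or myospryn, had 35.3, 32.5 and 37.6 FPKM in Clod-lip, against 18.5, 16.0 and 12.1 FPKM in Empty-lip (log2 1.14 ± 0.15, limma adjusted p = 0.0154). Ldb3 rose 2.12-fold (limma adjusted p = 0.00801) and Pdlim3, a related adaptor that binds alpha-actinin, 1.72-fold (limma adjusted p = 0.0260).

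Myozenins tether calcineurin and bind alpha-actinin at the Z-disc. Myoz1, the fast form, had 250.02, 238 and 249 FPKM in Clod-lip, against 135, 124 and 82.7 FPKM in Empty-lip (log2 1.13 ± 0.17, limma adjusted p = 0.0191). Myoz2, the form of slow fibres and heart, had 29.6, 35.7 and 27.4 FPKM in Clod-lip, against 22.3, 22.2 and 19.6 FPKM in Empty-lip and did not pass (log2 0.51 ± 0.12, limma adjusted p = 0.0555), though it did under 3 of the alternatives. Myoz3 averaged 6.54 ± 1.39 FPKM in Clod-lip, against 3.55 ± 1.43 FPKM in Empty-lip (SD, n = 3 each; log2 0.77, limma adjusted p = 0.145).

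Flnc, muscle filamin, and Synpo2l, an actin-bundling protein of the Z-disc, had the smallest changes of this class. Flnc had 68.8, 75.2 and 90.7 FPKM in Clod-lip, against 61.7, 50.1 and 65.5 FPKM in Empty-lip (log2 0.40 ± 0.13, limma adjusted p = 0.141). Synpo2l had 23.2, 20.5 and 25.2 FPKM in Clod-lip, against 17.9, 12.1 and 19.0 FPKM in Empty-lip (log2 0.49 ± 0.17, limma adjusted p = 0.149).

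Among 6 genes of proteins that serve stretch sensing, repair and assembly, 4 rose and 2 did not pass. Nrap, a scaffold for new myofibrils that remains at the muscle end, had 89.7, 93.2 and 104 FPKM in Clod-lip, against 50.5, 44.8 and 46.9 FPKM in Empty-lip (log2 1.00 ± 0.09, limma adjusted p = 0.00602). Abra, an activator of serum response factor signalling also called STARS, had 45.9, 51.6 and 57.5 FPKM in Clod-lip, against 31.3, 23.5 and 22.5 FPKM in Empty-lip (log2 0.98 ± 0.14, limma adjusted p = 0.0179). Nrap was 2.02-fold and Abra 2.00-fold higher by group means, without overlap. Xirp2, an actin-binding protein with Xin repeats, rose 1.95-fold (limma adjusted p = 0.00801) and Smpx, a small muscle protein encoded on the X chromosome, 1.66-fold (limma adjusted p = 0.0394).

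Csrp3 and Xirp1 did not pass and overlapped between groups. Csrp3, the muscle LIM protein of the Z-disc, had 82.8, 171 and 159 FPKM in Clod-lip, against 139, 149 and 126 FPKM in Empty-lip. Clod-lip 1 was the lowest and Clod-lip 2 the highest library (log2 -0.07 ± 0.25, limma adjusted p = 0.909), and without Clod-lip 1 the log2 change was 0.26, also not passing (limma adjusted p = 0.264). Xirp1, the Xin protein known from damaged fibres, had 18.9, 30.4 and 26.4 FPKM in Clod-lip, against 17.5, 19.1 and 22.2 FPKM in Empty-lip (log2 0.33 ± 0.17, limma adjusted p = 0.317).

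Within each library, 8 pairs of related isoforms were compared as log2 ratios of FPKM + 1. The added 1 lowers the ratio where the second gene of a pair is low. In 4 pairs all Clod-lip ratios exceeded all Empty-lip ratios, and in 4 the groups overlapped. With 3 libraries in each group the smallest exact two-sided permutation p is 0.1, so no pair could pass; the 4 separated pairs had this p, and 0.2 when adjusted over the 8 pairs.

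Tpm1 over Tpm3 had the largest difference. Its log2 ratio was 3.37, 3.13 and 3.49 in Clod-lip, against 2.36, 2.02 and 1.90 in Empty-lip, a difference of 1.23. Both genes are also expressed by cells other than muscle, so in bulk tissue this ratio is not one of fibres alone. Myoz1 over Myoz2, fast over slow, had 3.03, 2.70 and 3.14 in Clod-lip, against 2.55, 2.43 and 2.03 in Empty-lip, a difference of 0.63. Myom2 over Myom3 differed by 0.61, with 3.42 ± 0.12 in Clod-lip and 2.81 ± 0.34 in Empty-lip, and Mybpc2 over Mybpc1 by 0.20, with 0.94 ± 0.04 in Clod-lip and 0.73 ± 0.13 in Empty-lip (SD, n = 3 each). In these 4 pairs the first gene was thus higher relative to the second in every Clod-lip library.

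The other 4 pairs overlapped. Acta1 over Actc1 averaged 5.49 ± 0.45 in Clod-lip and 4.82 ± 0.38 in Empty-lip (exact two-sided permutation p = 0.3). Myl1 over Myl3 averaged 7.18 ± 0.45 in Clod-lip and 6.82 ± 0.52 in Empty-lip (exact p = 0.4), and the difference of 0.36 became 0.60 when Clod-lip 1 was left out, 0.15 when Clod-lip 3 was, and 0.062 when Empty-lip 3 was. Actn3 over Actn2 averaged 2.49 ± 0.14 in Clod-lip and 2.29 ± 0.25 in Empty-lip (exact p = 0.5), and the difference of 0.20 was 0.12 without Clod-lip 1 and 0.050 without Empty-lip 2. Mylpf over Myl2 averaged 7.99 ± 0.20 in Clod-lip and 8.16 ± 0.83 in Empty-lip (SD, n = 3 each; exact p = 0.8); its difference of -0.17 was 0.25 without Empty-lip 1, -0.58 without Empty-lip 3 and -0.30 with nothing added to FPKM. The pairs are not all fast over slow, Acta1 over Actc1 among the exceptions, and they did not all stand apart between groups.

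**Figure D4:**
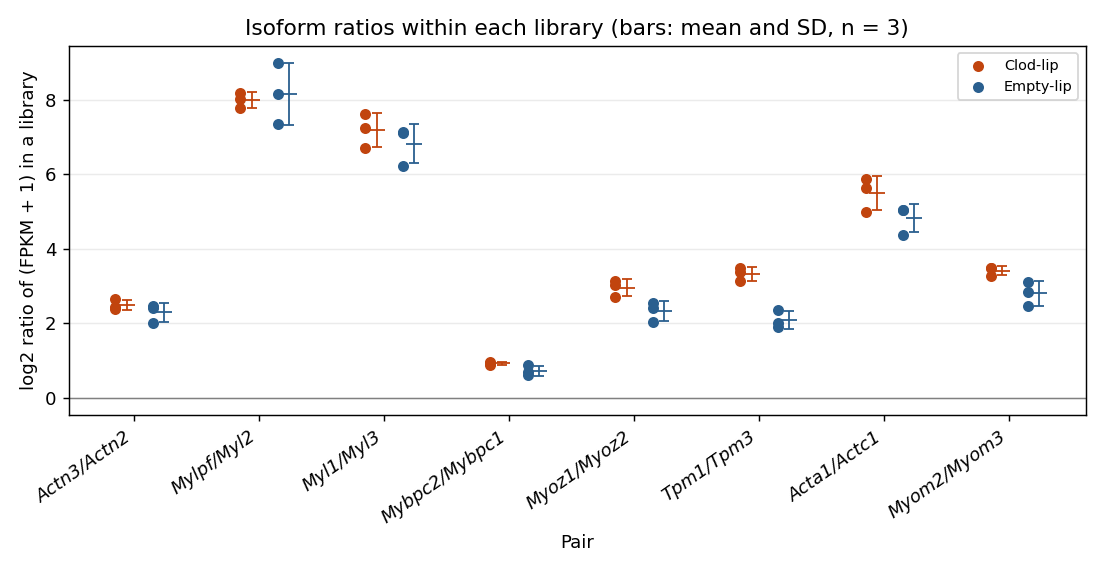
Log2 ratio of (FPKM + 1) within each library for 8 isoform pairs, with Clod-lip points left of Empty-lip points and bars for the mean and SD of 3 libraries. The groups are apart for Tpm1/Tpm3, Myoz1/Myoz2, Myom2/Myom3 and Mybpc2/Mybpc1, and overlap for the other pairs.

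Genes of the same structures outside the list were followed as 26 further sarcomere-associated genes, of which Ckm and Des are also among the fibre markers above. Of the 26, 12 rose, 0 fell and 14 did not pass, with a median log2 change of 0.56 and a positive change in all 26. Over all genes tested, 2.84% rose, 1.21% fell and 48.1% had a positive change, with a median log2 change of -0.01. Ckm, muscle creatine kinase, which binds the M-band, had 2226, 2042 and 2133 FPKM in Clod-lip, against 1269, 1029.9 and 886 FPKM in Empty-lip (log2 1.02 ± 0.14, limma adjusted p = 0.0160). Des, desmin, the intermediate filament that links Z-discs, had 992, 946 and 1140.4 FPKM in Clod-lip, against 839.9, 656 and 678 FPKM in Empty-lip and did not pass (log2 0.51 ± 0.12, limma adjusted p = 0.0655). The groups of both genes were apart.

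Markers of other cells were set beside the members that such cells also express, Tpm1, Tpm2, Tpm3, Flnc and Pdlim3 among them. Of 6 smooth muscle and pericyte markers 0 passed, with summed levels of 311, 253 and 350.1 FPKM in Clod-lip, against 272, 202 and 257 FPKM in Empty-lip, which overlap. All 6 had a positive change, with a median log2 of 0.30, and Rgs5 separated the groups (log2 0.57 ± 0.13, limma adjusted p = 0.0559). Of 5 fibroblast and 4 endothelial markers 0 passed. The fibroblast sums of 2606 to 2922 FPKM in Clod-lip, against 2386 to 2854 FPKM in Empty-lip, overlapped. Col1a1 and Col1a2, which made up most of these sums, overlapped between groups. Every Clod-lip value lay above every Empty-lip value for Dcn (log2 0.52 ± 0.12, limma adjusted p = 0.0529) and Lum (log2 0.36 ± 0.13, limma adjusted p = 0.160). For Pdgfra every Clod-lip value lay below (log2 -0.25 ± 0.08, limma adjusted p = 0.132). The endothelial sums were 184 to 205 FPKM in Clod-lip, against 149 to 181 FPKM in Empty-lip and did not overlap. All 4 endothelial markers had a positive change, with a median log2 of 0.24, and Kdr and Tek separated the groups (log2 0.51 ± 0.11 for Tek, limma adjusted p = 0.0512). Over all genes tested, 14% had every Clod-lip library above every Empty-lip library, 13.4% had every one below, and 48.1% had a positive change. Of 5 markers of myoblasts and new fibres 0 passed, with sums of 446, 249 and 313 FPKM in Clod-lip, against 363, 279 and 403 FPKM in Empty-lip. The part of these cells in the members' values was not tested.

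Neither length nor level ordered the changes. Over the 41 members, the log2 change had Spearman's rho of 0.09 with the exon length of the gene and 0.17 with its mean level, as a description across genes of the same libraries, which are not independent. In the GENCODE annotation of the same build, 12 members have exons overlapped by exons of a gene on the other strand, Neb, Ttn, Nrap and Myom1 among them, and 0 by a gene on the same strand. Whether reads were counted by strand is not given in the sources used here, so reads of such partners cannot be told apart.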

How the data were processed

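Total RNA of 6 tissue samples was sequenced, and each library's group comes from its title. TopHat and mm10 are named, without versions, in the submitters' processing notes. The authors deposited, for 23351 genes, FPKM in every library, their group means, and a p-value and q-value of their own comparison. Which program made these values is not stated. The deposited test score was left unused, as were count tests, since FPKM are not counts, and 1 empty line was dropped.

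The 13408 genes averaging 0.5 FPKM or more were fitted as log2(FPKM + 1) by limma 3.58.1 (R 4.3.3), letting the prior variance follow the mean; this scale understates changes of low genes. After that fit, the same method was run on simulated data as a check of the code only. Isoform ratios were compared by exact two-sided permutation (SciPy 1.17.1). The members and lists were chosen with earlier results of these data known. Every member is named; library values are given, per role, for the 2 highest members, the 2 with the largest passing changes, members of at least 10 FPKM that did not pass, and the isoform pairs. Small RNA genes were symbols starting with Mir, Snor, Scarna or Rnu. The alternatives tried were a block for replicate number, leaving out each library, pseudocounts of 0.1 and 0.5, dropping the filter or raising it to 5 FPKM, quantile normalization, median scaling, limma without trend and, chosen after seeing the data, leaving out the libraries with most S100a8, Clod-lip 2 and Empty-lip 1.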

Additional observations from a re-analysis of the deposited data

How the results depend on the processing

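Over 15 alternatives, 39 of 41 members kept the sign of their change; the exceptions were Actc1 (-0.047) and Csrp3 (0.26), both without Clod-lip replicate 1 and neither passing. With libraries left out Actc1 ranged from -0.047 to 0.42 and Csrp3 from -0.26 to 0.26. Leaving out 1 library also moved by over 1.5 times the changes of Lmod2 (0.34 without Clod-lip 3), Myom3 (0.27 without Clod-lip 3), Myl3 (0.25 without Clod-lip 1), Xirp1 (0.52 without Clod-lip 1, 0.19 without Clod-lip 2), Myoz3 (0.47 without Empty-lip 3) and Synpo2l (0.30 without Empty-lip 2), none of which passed. The 27 rising members became 13 with the replicate block, all among the 27. The block used the replicate numbers of the titles, and the labels do not say whether same-numbered libraries are pairs. Deviations of same-numbered libraries correlated at -0.08, -0.04 and 0.08, which cannot decide this with so few libraries in a group. With a library left out the rising members ranged from 0 to 29 and the falling ones from 0 to 1, against 27 and 0; the count of 0, without Empty-lip 2, had 34 members at an unadjusted p under 0.05. Over the whole table, 381 rising and 162 falling genes became 120 and 50 with the replicate block, 242 and 70 without a filter, 236 and 48 without trend, and ranged from 1 to 610 and from 1 to 782 with a library left out. Without Empty-lip 1 and Clod-lip 2, chosen after seeing the data, 489 genes rose and 612 fell, and 26 of the 27 members kept their call. The median over members ran from 0.76 to 0.98. The difference in the members' share of FPKM was 1.53 percentage points, and 2.01 when small RNA genes were counted in the total. The log2 ratio of Mylpf to Myl2 differed by -0.17, and by -0.58 to 0.25 with a library left out. The causes were not tested. Read counts were not used, so counting error could not be separated from the spread between libraries.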

Other observations

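Myoz1 and Synpo2l, named here after their values were seen, lie next to each other on chromosome 14, on the same strand and 2876 bases apart in the deposited positions of mm10. Myoz1 was 2.16-fold higher in Clod-lip and passed, and Synpo2l was 1.41-fold higher and did not; the difference between them was not tested.

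In Clod-lip 1, the library with the most Actc1 at 201 FPKM, Csrp3 was at its lowest, 82.8 FPKM. The same library had the most Myog, which drives the differentiation of myoblasts, at 222 FPKM, against 119.98 and 140.01 FPKM in Clod-lip 2 and 3 and 124 to 202 FPKM in Empty-lip. Myh3, the embryonic myosin heavy chain, was at 41.3 FPKM there, against 20.2 and 28.3 FPKM in Clod-lip 2 and 3 and 23.1 to 43.8 FPKM in Empty-lip. These are values of single libraries with no test.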
